A study of Mus musculus with 16 samples.

Results

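The respiratory chain and ATP synthase were read by 185 probe sets of 94 nuclear genes, out of 45101 probe sets on the array, of which 34958 carry a single symbol for 18194 genes in all (a probe set is a group of short probes that reads 1 transcript). The members were all probe sets whose only symbol begins with Nduf, Uqcr, Sdha, Sdhb, Sdhc, Sdhd, Cox4 to Cox8 or Atp5, whatever their values. The names fitted the label except for 12 genes, Ndufaf1 to Ndufaf8 and Sdhaf1 to Sdhaf4, which encode assembly factors and not subunits. Another 10 probe sets share such a symbol with a second gene and were left out.

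The study profiled the brains of mice with a mutation in a brain-specific isoform of PGC1α, a transcriptional coactivator. SINE KO mice were homozygous for a deletion of 4 bp in the SINE exon of the SSR-SINE-exon 2 isoform of Ppargc1a, made with CRISPR/Cas9 in C57BL/6J embryos, and they come from a single founder line. WT mice were littermates, matched for age, and the age of the mice on the arrays is not given in the sources used here. The transcript of the mutated exon remains present in the KO line, so no probe set can check the genotype. Fresh brains, freed by hand of what was left of the brain stem, gave 2 tissues, the cerebellum (cb) and everything else (Br, rest of brain). The 16 arrays fall into 8 groups of 2, which are WT cb female, WT cb male, WT Br female, WT Br male, KO cb female, KO cb male, KO Br female and KO Br male. The methods call the 2 specimens of a group independent, but whether cerebellum and rest-of-brain arrays of the same number share an animal is not given. If they do, the 8 arrays of a genotype come from 4 animals, and tests of 8 against 8 arrays by genotype or sex count each animal more than once.

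The respiratory chain sits in the inner mitochondrial membrane. Complex I (NADH dehydrogenase) and complex II (succinate dehydrogenase) feed electrons to ubiquinone, complex III (cytochrome bc1) passes them to cytochrome c, and complex IV (cytochrome c oxidase) passes them to oxygen. Complexes I, III and IV pump protons, and ATP synthase, or complex V, uses the proton gradient to make ATP. Most nuclear subunits are made in every cell with mitochondria, and neurons depend heavily on them. Several subunits of complex IV come in pairs or triplets of isoforms, of which a widely expressed form serves most tissues and another is known mainly from heart and skeletal muscle (Cox6a2, Cox7a1, Cox8b), testis (Cox6b2, Cox7b2, Cox8c), or lung and cells exposed to low oxygen (Cox4i2, Ndufa4l2). PGC1α is best known in other tissues as a coactivator of these same genes, with the factors NRF1, GABP (of the ETS family) and the estrogen-related receptors.

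The starts of 5 complex IV genes are shown here because 7 of the 8 restricted isoforms were among the genes not seen on every array. The sequences are RefSeq promoter windows of the build GRCm38.p6, each 300 bases long, from 250 bases before to 50 bases after the start of the gene, printed 5′ to 3′ on the strand of the gene with every CG pair in capitals. The liver-type Cox8a (chr19:7217567-7217866, minus strand) and the heart and muscle isoform Cox8b (chr7:140900397-140900696, minus strand) are set side by side, then Cox7a2 (chr9:79759804-79760103, minus strand) and its muscle counterpart Cox7a1 (chr7:30183921-30184220, plus strand), and last the testis isoform Cox7b2 (chr5:71548156-71548455, minus strand).
Cox8a: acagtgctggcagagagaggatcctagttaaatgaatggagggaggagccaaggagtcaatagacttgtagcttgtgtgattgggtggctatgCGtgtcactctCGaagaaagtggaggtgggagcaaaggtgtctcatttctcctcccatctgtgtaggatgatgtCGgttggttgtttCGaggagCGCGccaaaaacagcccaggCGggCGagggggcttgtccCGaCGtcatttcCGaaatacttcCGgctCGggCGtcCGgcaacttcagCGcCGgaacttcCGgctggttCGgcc
Cox8b: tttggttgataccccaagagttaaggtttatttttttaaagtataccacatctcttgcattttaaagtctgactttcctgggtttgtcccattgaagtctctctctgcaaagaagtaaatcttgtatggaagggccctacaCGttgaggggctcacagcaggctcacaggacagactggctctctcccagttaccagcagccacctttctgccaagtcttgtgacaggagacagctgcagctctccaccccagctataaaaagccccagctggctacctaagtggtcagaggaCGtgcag
Cox7a2: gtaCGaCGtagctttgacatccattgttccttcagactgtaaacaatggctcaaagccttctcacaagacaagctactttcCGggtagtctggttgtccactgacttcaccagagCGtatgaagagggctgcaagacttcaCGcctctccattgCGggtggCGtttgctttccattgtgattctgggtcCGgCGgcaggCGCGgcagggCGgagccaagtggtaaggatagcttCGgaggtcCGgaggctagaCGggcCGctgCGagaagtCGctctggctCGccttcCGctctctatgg
Cox7a1: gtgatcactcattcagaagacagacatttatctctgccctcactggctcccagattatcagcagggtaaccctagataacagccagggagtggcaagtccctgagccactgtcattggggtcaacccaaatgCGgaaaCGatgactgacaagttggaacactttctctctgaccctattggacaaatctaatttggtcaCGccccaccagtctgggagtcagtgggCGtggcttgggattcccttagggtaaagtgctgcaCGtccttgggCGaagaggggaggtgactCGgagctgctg
Cox7b2: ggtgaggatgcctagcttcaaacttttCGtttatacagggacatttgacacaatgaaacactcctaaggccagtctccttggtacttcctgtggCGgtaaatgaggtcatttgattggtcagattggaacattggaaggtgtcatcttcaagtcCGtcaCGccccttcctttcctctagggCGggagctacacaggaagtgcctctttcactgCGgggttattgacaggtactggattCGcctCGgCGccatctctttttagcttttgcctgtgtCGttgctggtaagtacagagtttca

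The window of Cox8a held 19 CG pairs and that of Cox8b held 2. Cox7a2 held 20, Cox7a1 held 7 and Cox7b2 held 10. The capitals of Cox8a and Cox7a2 crowd towards the gene start, while Cox8b has long stretches without any. A promoter window was at hand for 78 of the 94 genes, some with several starts, which gave 83 windows with a median of 20 CG pairs (range 2 to 44). The median over all 32851 windows of the table was 7, and over the 21263 windows of protein-coding genes it was 13. The 4 windows of restricted isoforms (Cox8b 2, Cox7a1 7, Cox6b2 10 and Cox7b2 10) all lay below the lowest of the widely expressed subunits of complex IV, Cox7c and Ndufa4 with 14 each. Among all members the division was not as clean, since Ndufc2, an accessory subunit of complex I with a probe set on all arrays, held 8, and Cox7a1, with 7, was itself detected on all 16 arrays. At the other end of the widely expressed complex IV subunits, Cox5a held 35, Cox6a1 held 32 and Cox5b held 27. No window of Cox4i1, Cox4i2, Cox6a2, Cox8c or Ndufa4l2 was matched.

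**Figure D1:**
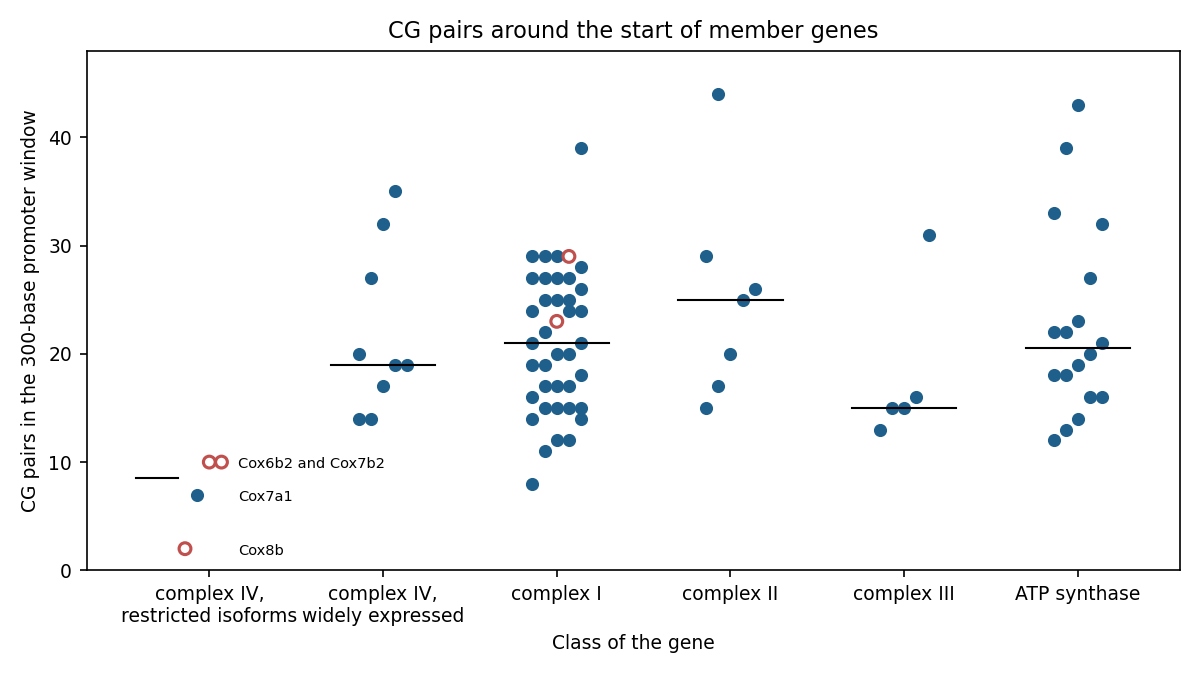
CG pairs in the 300-base promoter window (y axis) by class of the gene (x axis), with 1 point per window and a horizontal line at the median of the class. Filled points are genes with a probe set detected on all 16 arrays and open points are genes without one. The 4 windows of restricted complex IV isoforms, at 2, 7, 10 and 10, lie below every window of the widely expressed complex IV subunits, which start at 14.

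Short motifs of the factors named above were searched in the same windows on both strands. GCATGCG, the core of the NRF1 site, was in 12 of 83 member windows (14.5%), against 3.58% of all windows. CCGGAAG, a core bound by ETS factors, was in 22 (26.5%), against 8.86% of all windows. AAGGTCA, the core of the site of the estrogen-related receptors, was in 8 (9.64%), against 4.72%. The 4 windows of restricted isoforms held none of these 3 motifs, but 4 windows are too few to tell this from the shares above. TATAAA was in 10 member windows (12%), against 13.6% of all, and 2 of those 10 were Cox8b and Cox7b2. Among windows of protein-coding genes alone the shares were 4.44% for the NRF1 core, 11.6% for the ETS core, 4.08% for AAGGTCA and 12.6% for TATAAA. The NRF1 core and CG pairs overlap by their letters, and so do the ETS core and CG pairs. A match is a description of the letters and not of binding.

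The deposited values are not intensities. They take 5 distinct numbers, which were read as detection levels, with 2 as detected, 1 as marginal, and 0, -1 or -2 as not detected, a reading that rests on the values and on no written source. A level gives no amount, so groups that both detect a member can still differ in its amount. In tissue pieces, fewer cells of a type and less RNA per cell cannot be told apart. Between 25517 and 28155 probe sets were detected per array (median 26892), and precision depends on how few arrays there are.
Markers of the brain parts showed a library that stood apart from its group. Of 21 probe sets of cerebellar granule and Purkinje cell genes, 21 were detected on every cerebellum array except WT cb female replicate 2, which had 15, against 11 to 20 on the rest-of-brain arrays. Of 11 probe sets of forebrain genes, the same array had 7, the other cerebellum arrays 3 or 4 and every rest-of-brain array 9. Named results between brain parts are given with and without WT cb female replicate 2. The rest-of-brain array with 20 of the 21 cerebellar probe sets was KO Br female replicate 1, whose forebrain count was 9 like the others.

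Most of the chain was detected on every array. Of the 185 member probe sets, 156 (84.3%) were detected on all 16 arrays, against 48% of all probe sets. Another 17 were detected on some arrays, where the share of all probe sets was 25%, and 12 on none, where it was 27%. By gene, 85 of 94 had at least 1 probe set detected on all 16 arrays. These counts were 156, 17 and 12 without WT cb female replicate 2 as well. Of the 2960 member values 2654 were at level 2, 20 at level 1 and 286 at level 0, and none was below 0.

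Detection per array was narrow, as the 156 members on all arrays and the 12 on none could not vary. Of the 17 members detected on some arrays, 7 to 12 were detected per array. The members detected numbered 168 and 167 on the WT cb female arrays, 167 and 165 on WT cb male, 168 and 166 on KO cb female, and 166 and 167 on KO cb male. In the rest of brain they numbered 165 and 168 on WT Br female, 166 and 165 on WT Br male, 164 and 165 on KO Br female, and 164 and 163 on KO Br male. The 8 cerebellum arrays averaged 166.75 ± 1.04 (SD, n = 8) and the 8 rest-of-brain arrays 165 ± 1.51 (SD, n = 8), and their ranges overlapped. Without WT cb female replicate 2 the cerebellum mean was 166.714 ± 1.11 (SD, n = 7). In the rest of brain, the 4 KO arrays held 163 to 165 members and the 4 WT arrays 165 to 168, so the ranges met at 165. In the cerebellum the ranges were 166 to 168 in KO and 165 to 168 in WT. The difference of means in the rest of brain was -2 members (KO minus WT) and shrank to -0.75 when marginal levels were counted as detected. By gene, 89 or 90 of the 94 were detected on each array of both brain parts and genotypes. Over all probe sets the KO Br arrays detected 26893 to 27534 and the WT Br arrays 26713 to 28155.

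**Figure D2:**
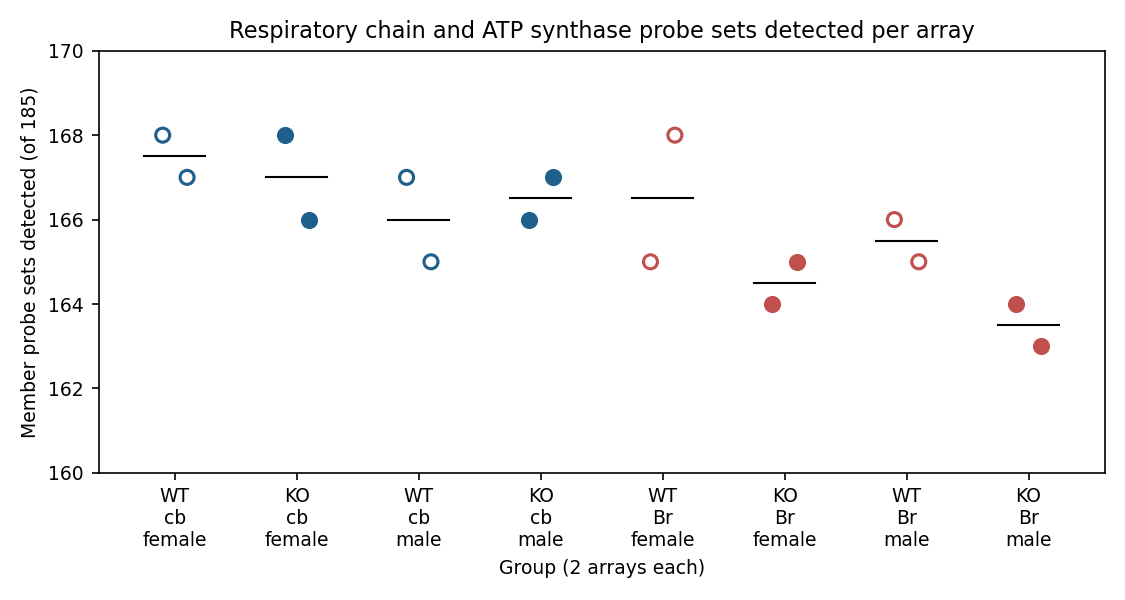
Member probe sets detected on each array (y axis, of 185, not starting at 0) by group (x axis), with a line at the mean of the 2 arrays. Open circles are WT and filled circles KO, blue is cerebellum and red the rest of brain. Counts run from 163 to 168, and the 4 KO Br arrays lie at 163 to 165.

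Replicates of a group differed in the call of 1 to 6 members (0.541% to 3.24%), against 5.98% to 7.95% of all probe sets. The fewest, 1, were between the KO Br male arrays and the most, 6, between the KO cb female arrays. Only the 17 of 185 members detected on some arrays could differ, where the share of all probe sets was 25%. The lower share of members is thus no sign that their calls repeat better.

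Complex I, the entry point for NADH, had 42 genes and 86 probe sets, of which 76 were detected on all arrays, 6 on some and 4 on none. All 6 member genes of the catalytic core, Ndufs1, Ndufs3, Ndufs7, Ndufs8, Ndufv1 and Ndufv2, had a probe set on all 16 arrays, and 15 of their 16 probe sets were detected everywhere. The 8 assembly factors Ndufaf1 to Ndufaf8 were detected everywhere by all 10 of their probe sets. Among the 28 accessory subunits, which surround and stabilise the core, 26 genes had a probe set on all arrays and 51 of 60 probe sets were detected everywhere. The exceptions among the accessory genes were Ndufb1 and Ndufb4, each read by 1 probe set within the rule.

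Ndufb1 (1454771_at), a small membrane-arm subunit, was detected on 14 arrays, was marginal on WT cb male replicate 1 and was not detected on KO cb female replicate 2. Both exceptions lay in the cerebellum, where 6 of 8 arrays detected it.
Ndufb4 (1432427_at), another membrane-arm subunit, was detected on 14 arrays and marginal on both KO Br male arrays. Its other probe sets, 1428075_at and 1428076_s_at, share their annotation with the copies Ndufb4b and Ndufb4c and were detected on all 16.

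Complex II, which is also an enzyme of the tricarboxylic acid cycle, had 8 genes, all with a probe set on all arrays. Its 4 subunits Sdha, Sdhb, Sdhc and Sdhd had 8 of 9 probe sets detected everywhere, and the exception was 1433292_at of Sdha, detected nowhere, beside 3 other Sdha probe sets detected everywhere. Of the assembly factors, Sdhaf3 had one probe set on all arrays and another, 1459940_at, on 6. The 6 were WT cb female replicate 2, WT Br female replicate 2, WT Br male replicate 1, KO cb female replicate 1 and both KO Br male arrays, with marginal calls on WT cb female replicate 1 and KO cb male replicate 1. They follow neither brain part, genotype nor sex, with 3 KO and 3 WT arrays and 2 in the cerebellum.

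Complex III had 8 genes, all with a probe set on all arrays, and 13 of its 16 probe sets were detected everywhere. All 3 exceptions were probe sets of Uqcrq, a small subunit of the complex. Its probe set 1430326_s_at was detected on all 16 arrays, 1427880_at on 14, 1452613_at on 2 and 1437134_at on none. The 2 arrays of 1452613_at were the WT cb female arrays. The 2 arrays without 1427880_at were the KO Br male arrays, where it was marginal.

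ATP synthase had 17 genes, all with a probe set on all arrays. The catalytic F1 head, of Atp5a1, Atp5b, Atp5c1, Atp5d and Atp5e, was detected everywhere by all 9 probe sets. The membrane part and stalk had 20 of 22 probe sets on all arrays. Subunit c, the rotating ring, is made from 3 genes that give the same mature protein, Atp5g1, Atp5g2 and Atp5g3. Atp5g1 (2 probe sets) and Atp5g3 (1 probe set) were detected everywhere. Atp5g2 was detected everywhere by 1415980_at, on 12 arrays by 1456128_at and on none by 1447714_x_at. The 4 arrays without 1456128_at were KO cb female replicate 2, WT Br male replicate 2 and KO Br male replicate 1, where it was marginal, and KO Br male replicate 2, where it was not detected.

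**Figure D3:**
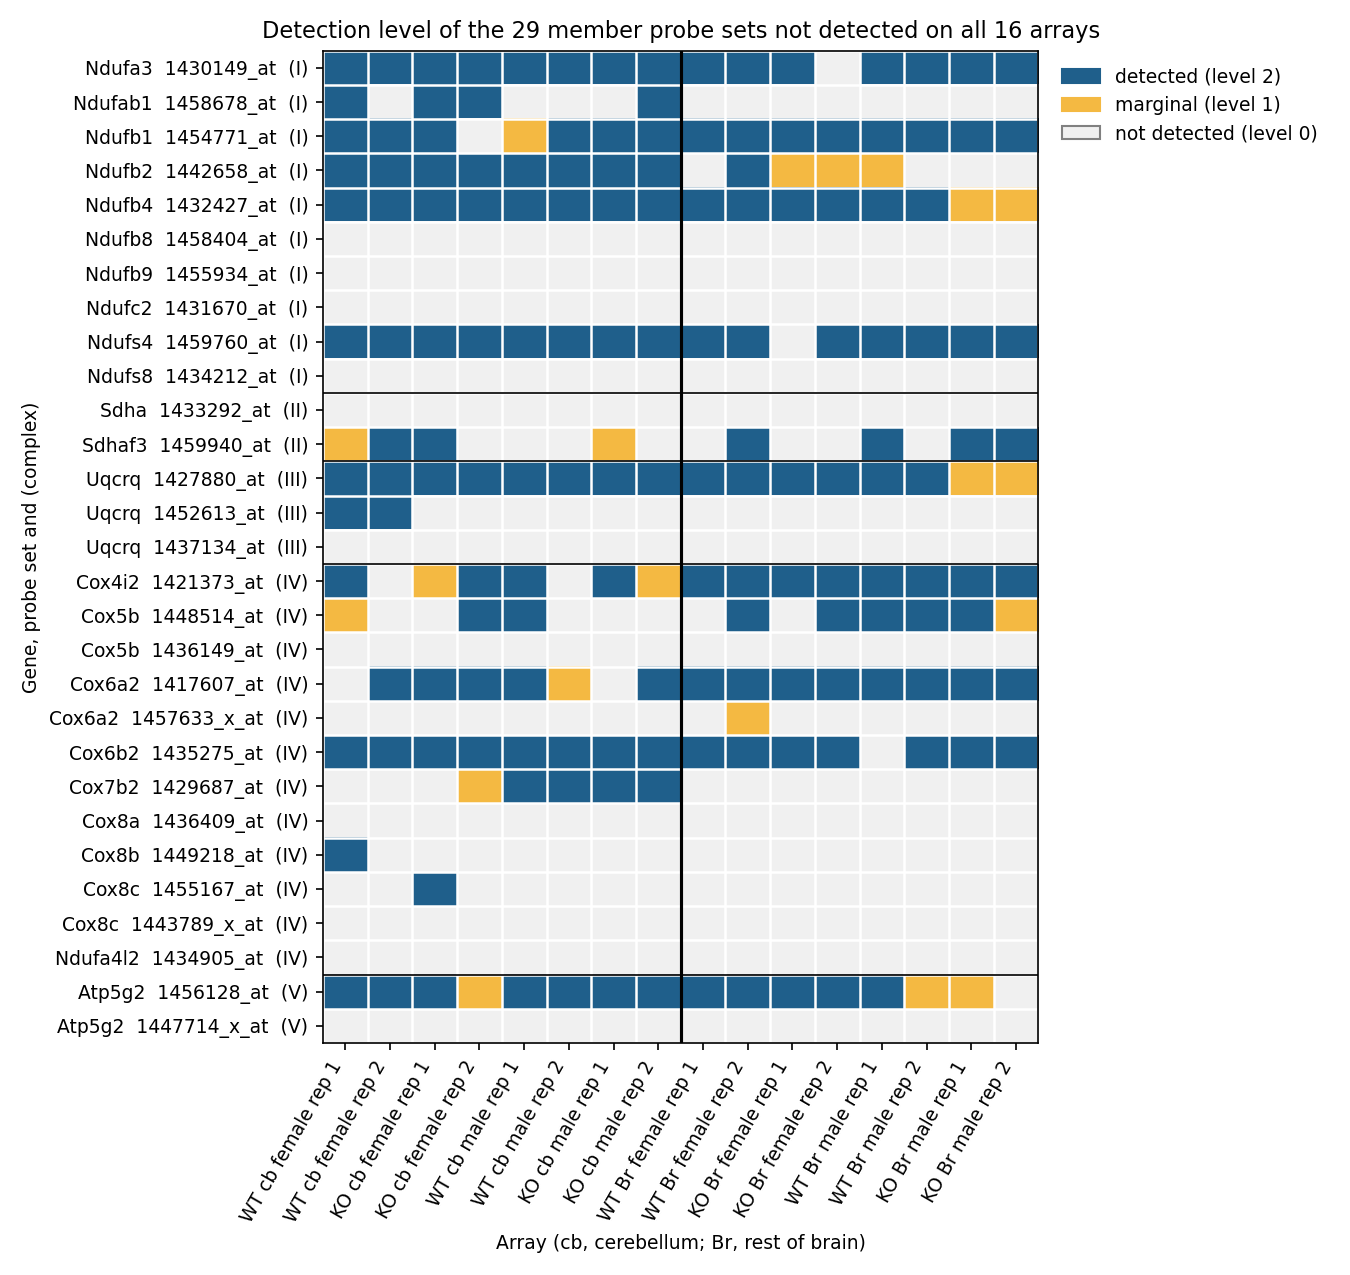
Detection level of the 29 members not detected on all 16 arrays, with a row for each probe set (gene, probe set and complex) and a column for each array, cerebellum left and rest of brain right of the vertical line. Blue is detected, yellow marginal and grey not detected. Of the 29, 12 rows have no blue cell, and Ndufb2 (1442658_at) is blue across the cerebellum and on 1 rest-of-brain array.

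Complex IV held most of the genes that were not seen everywhere. It had 19 genes and 37 probe sets, of which 25 were detected on all arrays, 7 on some and 5 on none. All 11 widely expressed subunits had a probe set on all arrays, and 24 of their 27 probe sets were detected everywhere. Of the 8 restricted isoforms a single gene, Cox7a1, was detected everywhere, and 1 of their 10 probe sets. The restricted isoforms therefore made up 7 of the 9 genes without a probe set on all arrays, the other 2 being Ndufb1 and Ndufb4. Outside the restricted isoforms 84 of 86 genes and 155 of 175 probe sets were detected everywhere.

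Cox4i1, the common form of subunit 4, was detected on all 16 arrays. Cox4i2, its counterpart in lung and at low oxygen, was detected on all 8 rest-of-brain arrays and on 4 of 8 cerebellum arrays. In the cerebellum it was detected on WT female replicate 1, WT male replicate 1, KO female replicate 2 and KO male replicate 1, marginal on KO female replicate 1 and KO male replicate 2, and not detected on WT female replicate 2 and WT male replicate 2. Each cerebellum group thus had 1 array with Cox4i2 and 1 without, so the calls did not separate KO from WT. The brain parts gave a two-sided Fisher's exact p of 0.0769 (adjusted p = 1 over all probe sets), and 0.0769 without WT cb female replicate 2. In the brain Cox4i2 is known from pericytes, and 11 of 15 pericyte marker probe sets were detected on all arrays, with 12 or 13 on each array of both brain parts. Choroid plexus markers did differ, with 4 to 7 of 8 probe sets detected on the cerebellum arrays and 7 on every rest-of-brain array. Of these, 1451580_a_at of Ttr and 1423400_at of Kl, like Cox4i2, were detected on 8 rest-of-brain and 4 cerebellum arrays. Both matched Cox4i2 on the 4 WT cerebellum arrays and on 2 of the 4 KO ones, KO cb female replicate 2 and KO cb male replicate 2, counting marginal as not detected. The other Ttr probe sets, 1454608_x_at, 1455913_x_at and 1459737_s_at, were detected on all 16 arrays, so Ttr itself was seen on each. The other Kl probe set, 1451892_at, was detected on no array. Of the 8 choroid plexus probe sets, 4 were detected on all 16 arrays. The part of choroid plexus tissue in the Cox4i2 calls was not tested.

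Cox6a1, the common form of subunit 6a, was detected everywhere by both probe sets. Cox6a2, the heart and muscle form, was detected by 1417607_at on all 8 rest-of-brain arrays and 5 of 8 cerebellum arrays. It was not detected on WT cb female replicate 1 and KO cb male replicate 1 and was marginal on WT cb male replicate 2. The other probe set of Cox6a2, 1457633_x_at, reached only a marginal level on WT Br female replicate 2. The exact p of 1417607_at between brain parts was 0.2, and 0.0769 without WT cb female replicate 2. Cox6a2 is also known from parvalbumin interneurons, whose markers were detected by 8 or 9 of 10 probe sets on every array. These markers were Pvalb, Tac1, Kcnc1 and Syt2, and whether other cells of each part also carry them was not tested. Of 10 muscle marker genes, Ckm, Mb, Mylpf, Actc1, Tnnt3 and Tnni2 were detected on no array. Acta1 was detected on 14 arrays by 1427735_a_at, and Tnnt2 on 14 each by 1418726_a_at and 1424967_x_at. Myl2 was detected on 6 arrays and Myh6 on 1. Of the 17 muscle probe sets 12 were detected on none, and 1 to 4 were detected per array, mainly those of Acta1, Tnnt2 and Myl2.

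Cox7a1, also a heart and muscle form, was detected on all 16 arrays, as were Cox7a2 and Cox7a2l. Cox8b, the muscle form of subunit 8, was detected on WT cb female replicate 1 and nowhere else. Cox8a, the common form, was detected everywhere by 1416112_at and 1448222_x_at, and on no array by 1436409_at.

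The isoforms named for testis differed from each other. Cox6b2 (1435275_at) was detected on 15 arrays, all but WT Br male replicate 1, beside Cox6b1 on all 16. Cox8c was detected by 1455167_at on KO cb female replicate 1 alone and by 1443789_x_at on none. Cox7b2 (1429687_at) was detected on 4 arrays, which were the 4 male cerebellum arrays, 2 WT and 2 KO, and was marginal on KO cb female replicate 2. No other female array and no rest-of-brain array showed it. A pattern of all 4 male cerebellum arrays and none of the other 12 was shared by 8 of 45101 probe sets (0.0177%). One of all 4 male and none of the 4 female cerebellum arrays was shared by 33 (0.0732%). Cox7b2 was the single member in each, and both patterns were taken from its calls, so their rarity is no test of it. Its exact p was 0.0769 between the sexes and 0.0769 between brain parts, with adjusted p = 1 for each, and the p between brain parts was 0.0256 without WT cb female replicate 2. Of the testis germ cell markers, 14 of 16 probe sets were detected on no array, and 0 or 1 were detected per array. Prm2, Tnp2, Odf1, Akap4, Ldhc and Pgk2 were detected nowhere. Prm1 was detected by 1415955_x_at on KO Br female replicate 1 and KO Br male replicate 2. Tnp1 was detected by 1438632_x_at on KO cb female replicate 1, the array that detected Cox8c. Neither gene had another probe set detected on any array.

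Ndufa4, once assigned to complex I and now to complex IV, was detected on all 16 arrays. Ndufa4l2, its paralog known from cells at low oxygen, was the only member gene detected on no array, by its single probe set 1434905_at.
The remaining subunits of complex IV that have no second isoform within the rule were detected throughout. Cox5a (3 probe sets), Cox6c (2) and Cox7c (2) were detected everywhere by all of them. Cox5b was detected everywhere by 4 of its 6 probe sets, on no array by 1436149_at and on 7 arrays by 1448514_at. Those 7 were WT cb male replicate 1, KO cb female replicate 2, WT Br female replicate 2, both WT Br male arrays, KO Br female replicate 2 and KO Br male replicate 1.

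In 14 genes, a probe set detected on all 16 arrays stood beside another that was not, which made 18 such probe sets, 9 detected on some arrays and 9 on none. The 9 on none were 1447714_x_at of Atp5g2, 1436149_at of Cox5b, 1436409_at of Cox8a, 1458404_at of Ndufb8, 1455934_at of Ndufb9, 1431670_at of Ndufc2, 1434212_at of Ndufs8, 1433292_at of Sdha and 1437134_at of Uqcrq. Of these 9 genes, 6 had every other probe set detected on all arrays, while Atp5g2, Cox5b and Uqcrq also had a probe set detected on some. Among those on some arrays, 1430149_at of Ndufa3 missed only KO Br female replicate 2 and 1459760_at of Ndufs4 missed only KO Br female replicate 1. Both genes were detected everywhere by every other probe set, 2 for Ndufa3 and 3 for Ndufs4.
The kind of probe set moved with these calls. Plain probe sets, whose names end in _at alone, were detected on all arrays in 72 of 98 members (73.5%). Those that match several transcripts of a gene (_a_at) were detected everywhere in 39 of 39, those shared by several genes (_s_at) in 19 of 19 and those with some cross-matching probes (_x_at) in 26 of 29. All 17 members detected on some arrays were plain probe sets. Over all probe sets with a single symbol the shares were 49.3% for plain, 63.3% for _a_at, 71.2% for _s_at and 56.1% for _x_at. The part of the kind of probe set in the detection of the members was not tested.

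Between cerebellum and rest of brain, 1 member differed in detection by an unadjusted test. Ndufb2 (1442658_at), an accessory subunit of complex I, was detected on all 8 cerebellum arrays. In the rest of brain it was detected on WT Br female replicate 2, marginal on WT Br male replicate 1 and both KO Br female arrays, and not detected on the other 4. The parts therefore overlapped by 1 array, with 4 KO and 4 WT cerebellum arrays and no KO rest-of-brain array at level 2.
The two-sided Fisher's exact p of Ndufb2 was 0.0014, with an adjusted p of 0.161 over all 45101 probe sets. With adjustment over the 3873 probe sets whose number of arrays with detection lets the test reach 0.05 at all, of which 3 are members (the named probe sets of Cox5b, Ndufb2 and Sdhaf3), its adjusted p was 0.0138. Without WT cb female replicate 2 the unadjusted p was 0.0014 (7 of 7 against 1 of 8 arrays), and without WT Br female replicate 2, which had the most probe sets detected of all arrays, it was 0.000155. The other 2 Ndufb2 probe sets, 1416834_x_at and 1448483_a_at, were detected on all 16 arrays, so the gene itself was seen in both parts. A probe set annotated to both Ndufb2 and Adck2 was detected on 7 cerebellum and 6 rest-of-brain arrays. Ndufab1 (1458678_at), the acyl carrier protein of complex I, was detected on 4 cerebellum arrays (WT female replicate 1, both KO female arrays and KO male replicate 2) and no rest-of-brain array. Its p was 0.0769, or 0.0256 without WT cb female replicate 2, and its 4 other probe sets were detected everywhere.

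Over all probe sets, the exact test between brain parts called 0% with adjustment over all (0 of 185 members), 17.1% of the 3873 with adjustment over those (1 of 3 members), and 2.76% at an unadjusted p under 0.05 (1 of 185 members). Without WT cb female replicate 2 the last 2 shares were 20.7% (1 of 6 members, Ndufb2, adjusted p = 0.0116 by Fisher's exact test) and 3.55% (3 of 185 members). No member was detected in 1 brain part on all arrays and in the other on none, where 0.0554% of all probe sets were detected in the cerebellum alone and 0.255% in the rest of brain alone. Because 84.3% of the members were detected everywhere, few could differ in a call.

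No member was called between KO and WT over both sexes and brain parts. With 8 KO against 8 WT arrays 0 of 185 members were called with adjustment over all probe sets (0% of all), 0 of 3 with adjustment over the 3873 (0% of those), and 0 had an unadjusted p under 0.05 (0.0843%, or 38, of all probe sets). The lowest p among members was 0.467, that of Ndufb4 and of 2 Uqcrq probe sets. By sex, 0 members were called with either adjustment (0% of all and 0% of the 3873) and 0 at an unadjusted p under 0.05 (0.286%, or 129, of all).

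Within a sex and brain part, 2 KO against 2 WT arrays cannot reach an exact p below 0.333, so members were counted that were detected on both arrays of one genotype and neither of the other. In the female cerebellum 1 member, 1452613_at of Uqcrq, was detected in WT alone, where 0.71% of all probe sets were. None was detected in KO alone, where 0.743% of all were. In the female rest of brain no member was detected in KO alone (0.45% of all) or in WT alone (0.49% of all). In the male cerebellum no member was detected in KO alone (0.313% of all) or in WT alone (0.792% of all). In the male rest of brain 2 members, 1427880_at of Uqcrq and 1432427_at of Ndufb4, were detected in WT alone (0.448% of all) and none in KO alone (0.576% of all).

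Both of these were marginal, not at level 0, on the 2 KO Br male arrays, and detected on the other 14. A pattern of detection on all arrays but the KO Br male pair was shared by 13 of 45101 probe sets (0.0288%), of which these 2 were members. The pattern was taken from the calls of these 2 members, so its rarity is no test of them. Uqcrq was seen on those arrays by 1430326_s_at, and Ndufb4 by the probe sets it shares with its copies. The female rest of brain did not show the pattern, since both KO Br female arrays detected both probe sets.
Over both sexes, no member was detected on the 4 KO and none of the 4 WT arrays or the reverse. For the cerebellum the share of all probe sets was 0.00887% with KO alone and 0.0288% with WT alone, and for the rest of brain 0.0155% with KO alone and 0.00443% with WT alone. Marker lists of muscle, pericytes, parvalbumin interneurons and choroid plexus had no probe set called by genotype, where 0% of all probe sets were called. None had an unadjusted p under 0.05 by Fisher's exact test, where 0.0843% of all did. Lists this short cannot decide whether these cells differed by genotype.

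Other genes of the same metabolism were given by counts from lists. Of 21 probe sets of other chain components and carriers (cytochrome c, the complex III subunit Cyc1 and enzymes that make ubiquinone) 16 (76.2%) were detected on all arrays. The share was 78.8% for 52 probe sets of assembly factors outside the rule, 79.3% for 29 of the tricarboxylic acid cycle, 78.4% for 37 of the carnitine shuttle and fatty acid oxidation and 81.5% for 27 of nuclear regulators of mitochondrial genes. These lie near the 84.3% of the members and above the 52.3% of all other probe sets with a single symbol. Cyct, the testis form of cytochrome c, was detected on 1 array.
Between brain parts, 1 probe set each of the assembly factors, the tricarboxylic acid cycle and fatty acid oxidation was called with adjustment over the 3873. Of all those 3873, 17.1% were called. Atpaf2, an assembly factor of ATP synthase, was detected by 1426474_at on 8 rest-of-brain and 2 cerebellum arrays. Ogdh, of the oxoglutarate dehydrogenase complex, was detected by 1445632_at on 8 cerebellum arrays and no rest-of-brain array. Its other probe set, 1451274_at, was detected on all 16 arrays, so the gene itself was seen in both parts. Cpt2, of the carnitine shuttle, was detected by 1416772_at on 8 cerebellum and 2 rest-of-brain arrays. Its other probe set, 1447820_x_at, was detected on 3 KO and 2 WT cerebellum arrays and on 3 WT rest-of-brain arrays. Without WT cb female replicate 2 the called probe set of Atpaf2 was detected on 1 of 7 cerebellum arrays (adjusted p = 0.0116 by Fisher's exact test). Those called for Ogdh and Cpt2 were detected on 7 of 7 (adjusted p = 0.00288 and 0.0371 by Fisher's exact test), so all 3 stayed called. In that setting 20.7% of the probe sets that can reach 0.05 were called.
With 8 KO against 8 WT arrays no probe set of these 5 lists was called between the genotypes, with either adjustment or at an unadjusted p under 0.05. Within the cerebellum, 1441919_x_at of Crat, carnitine acetyltransferase, was detected on all 4 WT arrays and on no KO array, where it was marginal on KO cb female replicate 2. That is the WT-alone count of 0.0288% of all probe sets, and 4 against 4 arrays allow an exact p of 0.0286 at the lowest. Another Crat probe set, 1417008_at, was detected on all 16 arrays. Within a single sex, the probe sets of these lists detected in 1 genotype alone numbered 1 (KO) and 2 (WT) for cerebellum of females, 0 and 2 for cerebellum of males, 1 and 0 for rest of brain of females and 0 and 1 for rest of brain of males. The shares of all probe sets, in the same order, were 0.743% and 0.71%, 0.313% and 0.792%, 0.45% and 0.49%, and 0.576% and 0.448%.

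**Figure D4:**
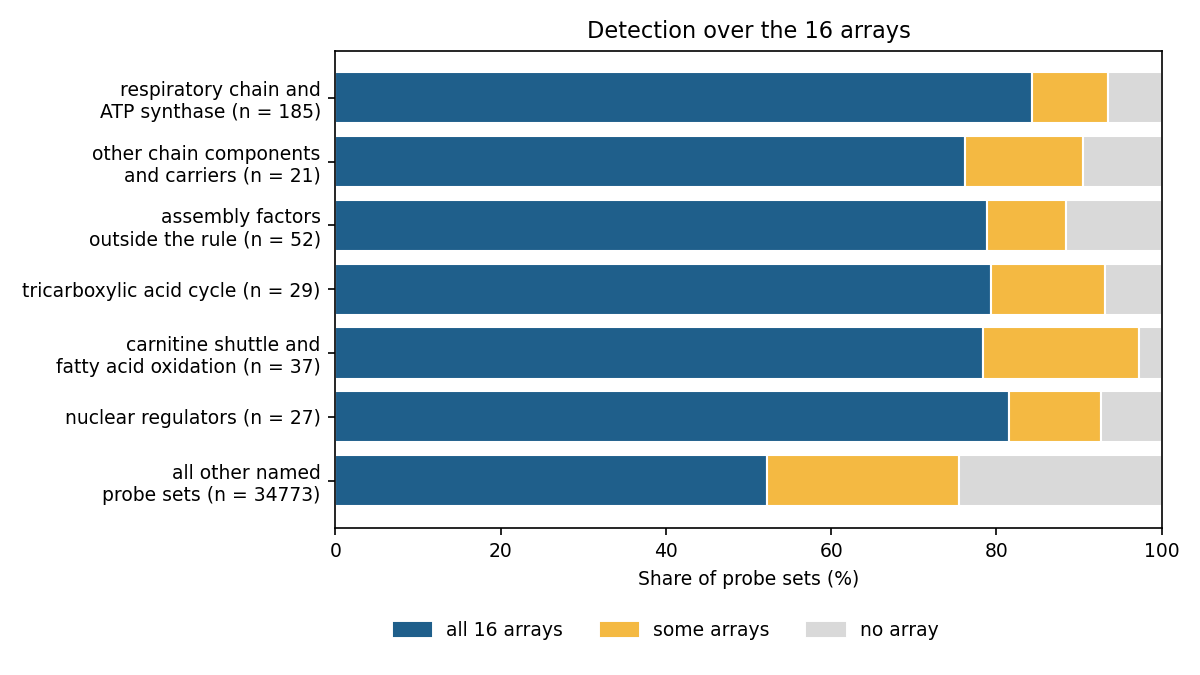
Share of probe sets (x axis, percent) detected on all 16 arrays (blue), on some (yellow) and on none (grey), for the members, 5 related lists and all other probe sets with a single gene symbol, with the number of probe sets beside each name. The members reach 84.3% on all arrays, the related lists 76.2% to 81.5% and all other named probe sets 52.3%.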

How the data were processed

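Total RNA of the cerebellum and the rest of brain was hybridized to Affymetrix arrays, 2 for each of 8 groups taken from the sample labels. The array is a human one by the methods and a mouse one by its probe sets and platform annotation. MAS5 is named by the methods and processing notes of the authors, and RMA by their results section. The deposited table holds neither kind of intensity, but 5 distinct numbers that were read here as detection levels of 2, 1, 0, -1 and -2. How these came into the deposited file is not given in the sources used here. A value above 5e-38 (level 2) counted as detected.

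Gene names came from the platform annotation, with 1 symbol for 34958 probe sets, several for 932 and none for 9211. All 94 member symbols matched RefSeq genes by gene identifier. Members, marker lists and tests were chosen with earlier results of these data known, and the division of complexes into roles was written from general knowledge after the calls were seen. Genes were named if no probe set was detected on all arrays, if a probe set was detected in 1 group alone or had an unadjusted p under 0.05, if they belong to a named isoform family, or if an extra probe set was not detected everywhere.

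Detected and not detected arrays were compared for each of 45101 probe sets with two-sided Fisher's exact tests (8 against 8 arrays) for brain part, genotype and sex, with Benjamini-Hochberg adjustment at 0.05. A second adjustment covered the 3873 probe sets that can reach 0.05. The tests were tried on simulated calls. P-values measure only the spread between these specimens. Alternatives were marginal levels as detected, levels below 0 as missing, genes in place of probe sets, pairs of the same replicate number, genotype permuted within sex and brain part (1296 arrangements) and each array left out. The second adjustment without WT cb female replicate 2, and the count in 1 genotype alone for the other lists, were chosen after seeing the data. So were the patterns counted for Cox7b2 and for the KO Br male pair, which were taken from the calls of the members named with them. Same-numbered arrays did not deviate together (correlations from -0.0181 to 0.0647). Precision is limited by the number of arrays, and the depth shows only as the 25517 to 28155 probe sets detected. Fold changes were not analysed here. Statistics were run in scipy 1.17.1 under Python 3.11.15, with pandas 2.3.3 and numpy 2.4.6 for tables and matplotlib 3.10.9 for figures.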

Additional observations from a re-analysis of the deposited data

How the results depend on the processing

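Detection levels carry no amount, 2 arrays per group cannot reach an exact p below 0.333, and members seen on every array could not differ in a call. Between the brain parts, where 0 probe sets were called with adjustment over all, 662 were called (1 of them a member, Ndufb2) when only the 3873 were adjusted together, and 61 when genes replaced probe sets. Leaving out a single array called 144 to 257 probe sets, the most without WT cb female replicate 2, and 0 to 1 members, the 1 being Ndufb2 without WT Br female replicate 2. The adjustment over all probe sets needs many tied lowest p-values, so calls appear or vanish together. Unadjusted, the members under 0.05 were 1 to 3 with an array left out, and without WT cb female replicate 2 they were Ndufb2, Cox7b2 and Ndufab1. By sex they were 0 to 1, the 1 without any of the 4 male rest-of-brain arrays. No setting called a member for genotype or sex after adjustment.

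Counts of members detected in 1 genotype alone moved with the setting. For the female cerebellum, WT alone (1), genes gave 0, and leaving out an array gave 1 to 3, with 2 without WT cb female replicate 2 and 3 without KO cb female replicate 1. KO alone (0) gave 1 without each of the 4 arrays. For the male rest of brain, WT alone (2), marginal levels counted as detected gave 0 and genes gave 1. Leaving out an array gave 2 to 3. KO alone there (0) gave 0 to 1 with an array left out, as did KO alone and WT alone in the male cerebellum (0) and cerebellum alone between the brain parts (0). WT alone in the female rest of brain (0) gave 0 to 2, with 2 without WT Br female replicate 1.

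By gene, 85 were detected on all arrays, 8 on some and 1 on none, and the mean percent of genes detected was 95.3457 in cerebellum, rest of brain, KO and WT alike. With marginal levels as detected the mean percent of members in the cerebellum was 90.7432. Same-numbered arrays were not shown to be pairs. With the replicate block, 0 probe sets were called for brain part, genotype or sex, and 759, 5 and 32 had an unadjusted p under 0.05. Of the values that answer a comparison, 277 stayed within 1.5 times the main count (or, for a mean percent, within the SD over arrays) and 46 moved.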
